A study of Mus musculus with 2 samples.

Results

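The Xcr1 Clec9a conventional dendritic cells of the aortic arch were chosen by measured UMIs of a few genes, and they numbered 61 of 8155 kept cells. A cell was kept if 200 or more genes and 200 or more UMIs were found in it and mitochondrial genes gave no more than 30% of the UMIs. A member had a UMI of Xcr1 or Clec9a, had UMIs of at least 2 of the 6 genes Xcr1, Clec9a, Flt3, Itgae, Wdfy4 and Naaa, took less than 0.2% of its UMIs from C1qa, C1qb and C1qc together, and did not have both Pecam1 and Cdh5. By this rule 31 of 5416 cells were members in the library of the normal diet (ND) and 30 of 2739 in the library of the high-fat diet (HFD).

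Conventional dendritic cells of type 1 (cDC1) take up material of dying cells and present its peptides on MHC class I to CD8+ T cells, a route called cross-presentation. They depend on the growth factor FLT3 ligand and on the transcription factors Irf8, Batf3 and Id2, and mouse cDC1 of tissues carry the integrin chain CD103, the product of Itgae. XCR1 is a chemokine receptor whose ligand Xcl1 is made by natural killer cells and activated CD8+ T cells, and CLEC9A binds actin filaments exposed by dead cells. In the wall of arteries they lie beside the conventional dendritic cells of type 2, which express Cd209a in these data.

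The study asked how the cells of the artery differ after a high-fat and high-cholesterol diet. Male Apoe-/- mice of the C57BL/6 strain were 16 weeks old, after 12 weeks on ND or HFD, and lack apolipoprotein E in both groups. Each library pooled the aortic arches of 2 mice of a group, which were digested with enzymes, and was counted as UMIs per gene and barcode. With 1 library per diet there was no replicate, so no difference between the diets was tested, and each value is given for both libraries instead.

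Levels are CPM, the summed UMIs of a gene in a population of cells as parts per 1000000 of all UMIs that this population held. Ranges in parentheses are exact 95% intervals, by the Poisson distribution for CPM, Clopper-Pearson for shares and the conditional binomial distribution for log2 ratios. They cover counting error only, and not the spread between mice. The members held 269547 UMIs in ND and 198781 in HFD. Depth per cell ran from 2674 to 18746 UMIs with a median of 7925 in ND, and from 1680 to 11867 with a median of 6540 in HFD. The median mitochondrial share of a member was 10.4% in ND and 19.3% in HFD. Over all kept cells the median depth was in the other order, with 3733 UMIs in ND and 5336 in HFD. Of all 10234 ND and 14225 HFD barcodes, 39 barcode sequences occurred in both libraries, 1 of them among kept cells and none among members.

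Members made up 0.572% (0.389% to 0.811%) of the kept ND cells and 1.10% (0.740% to 1.56%) of the kept HFD cells. Among kept cells with a UMI of Ptprc, the pan-leukocyte gene, the shares were 1.83% (1.22% to 2.63%) and 3.34% (2.19% to 4.86%). After every cell was thinned at random to 1000 UMIs, 14 of 5353 ND cells and 9 of 2739 HFD cells met the rule, or 0.262% (0.143% to 0.438%) and 0.329% (0.150% to 0.623%), and 63 shallower ND cells were left out, none of them a member. The higher share in HFD was thus within the counting error of the thinned cells. An alternative left out members with 2 or more UMIs of 12 genes of B, T and endothelial cells, fibroblasts and red blood cells. That took 9 of 31 ND and 23 of 30 HFD members and gave the other order, at 0.406% in ND and 0.256% in HFD. These values still divide by all kept cells, so they are not shares among cells that passed the same filter. Hbb-bs, 1 of the 12 genes, was found in 7 of 31 ND and 25 of 30 HFD members. As a background, 0 of 459 ND and 0 of 19 HFD B cells, gated by Cd79a and Cd79b, met the rule, with exact intervals up to 0.800% and 17.6%.

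The 6 genes of the rule are given as a description, since they chose the cells. Xcr1 (ENSMUSG00000060509, chromosome 9, 123852315 to 123862029, minus strand, GENCODE M21 on GRCm38) was at 211 CPM (160.2 to 274) in ND cells and 221 CPM (161 to 297) in HFD cells. Clec9a (ENSMUSG00000046080, chromosome 6, 129408862 to 129424763, plus strand) was at 211 CPM (160.2 to 274) in ND cells and 191 CPM (135 to 262) in HFD cells. Of all Xcr1 UMIs in kept cells, members held 57 of 60 in ND and 44 of 54 in HFD, and of Clec9a UMIs 57 of 68 and 38 of 47. Itgae, the chain of CD103, was at 156 and 161 CPM, and members held 73.7% and 71.1% of its UMIs. Flt3, the receptor of FLT3 ligand, was at 200.3 and 241 CPM in members and at 97.7 and 118 CPM in Cd209a dendritic cells. Wdfy4, which is needed for cross-presentation of cell-bound antigen, was at 653 and 694 CPM, and members held 23% and 33.1% of its UMIs. B cells had Wdfy4 at 154 and 66.4 CPM and macrophages at 40.0 and 31.2 CPM. Naaa, a lysosomal hydrolase of fatty acid amides, was at 824 and 1494 CPM.

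Most members had more of the 6 genes than the minimum of 2. The margin was smaller on Xcr1 and Clec9a, of which 21 of 31 ND and 18 of 30 HFD members had 2 or more UMIs together. All 6 genes were found in 11 ND and 4 HFD cells, 5 in 8 and 15, 4 in 8 and 7, and 3 in 2 and 4. Both Xcr1 and Clec9a were found in 17 of 31 ND and 14 of 30 HFD cells. The 2 cells just inside the rule, with exactly 2 of the 6 genes, were both ND cells and did not look like the rest. They had 0 UMIs of Irf8, 1720 CPM of Cst3, 1065 CPM of Cd209a and 3113 CPM of Lyz2. Just outside, 1 ND cell had no second gene of the rule, and no cell lay between 0.1% and 0.2% of C1q UMIs on the inside. Of cells that met the rest of the rule, 1 HFD cell had 0.2% to 0.4% of C1q UMIs, 2 ND cells had more, and 2 ND and 5 HFD cells had both Pecam1 and Cdh5. The latter cells had Irf8 at 745 and 651 CPM and Cst3 at 11181 and 9349 CPM, beside the genes of endothelial cells. The 61 ND and 38 HFD cells with at least 2 of the other 4 genes, but neither Xcr1 nor Clec9a, had Irf8 at 110.3 and 151 CPM and Cd209a at 404 and 639 CPM.

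**Figure D1:**
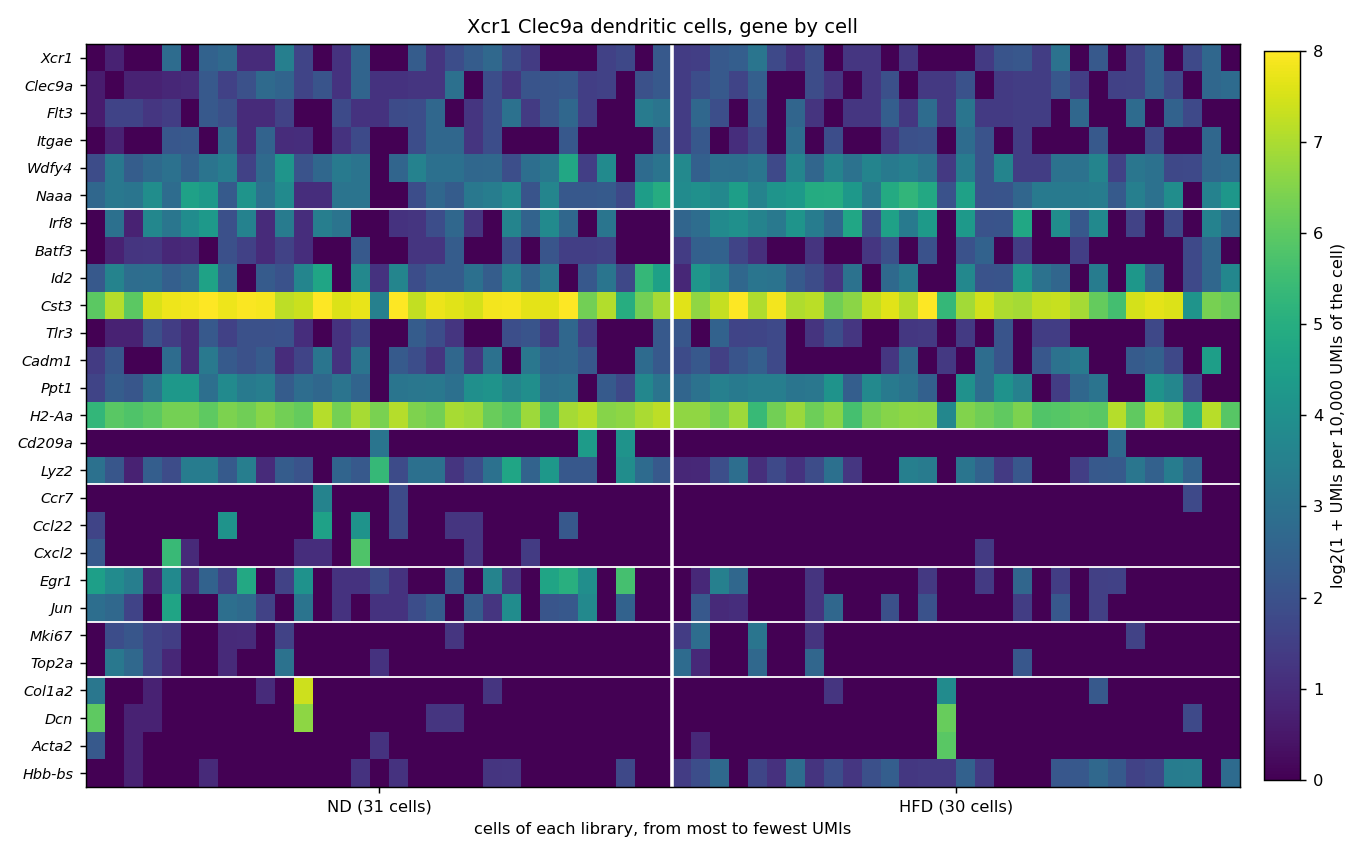
Level of 27 genes (rows) in each of the 31 ND and 30 HFD Xcr1 Clec9a dendritic cells (columns, ordered by depth within a library), as log2(1 + UMIs per 10000 UMIs). The top 6 rows are the genes of the rule. Cst3 and H2-Aa had UMIs in 31 of 31 and 30 of 30 cells, while Dcn, Col1a2 and Acta2 were carried by a few cells.

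The name was checked on cDC1 genes that the rule did not use, which were chosen with earlier results of these data known. Irf8 (ENSMUSG00000041515, chromosome 8, 120736358 to 120756694, plus strand) was at 545 CPM (461 to 641) in ND cells and 956 CPM (825 to 1102) in HFD cells, against 8.50 and 63.8 CPM in Cd209a dendritic cells and 131 and 109 CPM in all other kept cells. It had UMIs in 23 of 31 ND cells and 25 of 30 HFD cells. Cst3, which encodes the protease inhibitor cystatin C, was at 18412 CPM (17904 to 18932) in ND cells and 14926 CPM (14394 to 15473) in HFD cells, against 3327 and 2569 CPM in Cd209a dendritic cells and 1760.3 and 1395 CPM in the other cells. Every member held Cst3, with a lowest, median and highest CPM per cell of 1009, 19921 and 53522 in ND and 1673, 13633 and 33505 in HFD. Tlr3, a sensor of double-stranded RNA, was at 163 and 136 CPM and at 0 and 3.36 CPM in Cd209a dendritic cells. Cadm1, an adhesion molecule, was at 315 and 252 CPM against 12.7 and 47.0 CPM, and Ppt1, a lysosomal thioesterase, at 783 and 759.6 CPM against 51.0 and 80.6 CPM.

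Other genes of the cDC1 program were shared with Cd209a dendritic cells or were sparse. Batf3 was at 115 and 151 CPM in members and 127 and 90.7 CPM in Cd209a dendritic cells, with 8.23 and 15.7 CPM in all other cells. Id2 was at 742 and 604 CPM against 251 and 215 CPM. Zbtb46, a gene of conventional dendritic cells that endothelial cells use as well, had 8 and 7 UMIs. Btla, an inhibitory receptor, was at 96.5 and 171 CPM and Cd24a at 416 and 473 CPM. Gcsam and Snx22 were low, at 44.5 and 90.6 CPM and 26.0 and 85.5 CPM, and had no UMI in Cd209a dendritic cells. Cd8a, which marks cDC1 of lymphoid organs, had 0 UMIs in both libraries.

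UMIs of several genes that define other leukocytes were few in the members, while the macrophage, monocyte and plasmacytoid dendritic cell lists as a whole were not near 0. Of the macrophage genes, C1qa, C1qb and C1qc, which the rule limits, had 1 UMI together in ND and 6 in HFD, and Adgre1 had 2 and Csf1r 3 UMIs in ND, with 0 of either in HFD and 0 of Fcgr1 in both. Lyz2, a gene of many myeloid cells, was at 646 and 322 CPM, against 7995 and 9358 CPM in macrophages. The 12 macrophage genes summed to 902 and 533 CPM, against 2473 and 5973 CPM in all other cells. The 6 monocyte genes summed to 493 and 825 CPM, against 863 and 1204 CPM. The 8 B cell genes summed to 108 and 95.6 CPM, with 16 of 29 ND and 16 of 19 HFD UMIs from Ighm, the 9 T cell genes to 14.8 and 75.5 CPM, and the 6 natural killer cell genes to 3.71 and 10.1 CPM. Of the 5 neutrophil genes, S100a8 alone had UMIs, 1 in ND and 3 in HFD. Siglech, which defines plasmacytoid dendritic cells, had 1 UMI in each library. The 10 genes of that list summed to 226 and 216 CPM, against 1442 and 1169 CPM in all other cells. Cd209a was found in 3 ND cells and 1 HFD cell.

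RNA of 4 other sources moved with the library or with single cells. The 7 fibroblast genes summed to 3280 CPM in ND members and 825 CPM in HFD members, and of these UMIs 332 and 502 of 884 lay in 2 ND cells and 132 of 164 in 1 HFD cell. The same HFD cell held 77 of the 78 UMIs of the 5 smooth muscle genes, which summed to 137 and 392 CPM. Haemoglobin genes summed to 51.9 CPM in ND and 458 CPM in HFD members, against 3956 and 26920.3 CPM in the other cells of these libraries. Club cell genes of the airway summed to 189 CPM in ND and 0 CPM in HFD members, against 15424 and 0.588 CPM in the other cells. The 9 endothelial genes summed to 471 and 578.5 CPM, against 19218 and 22707 CPM. Hbb-bs alone was found in 7 of 31 ND and 25 of 30 HFD members. The diets were therefore also compared without the 3 cells rich in fibroblast RNA, and without all cells with 2 or more UMIs of the 12 genes named above, which left 22 ND and 7 HFD cells.

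**Figure D2:**
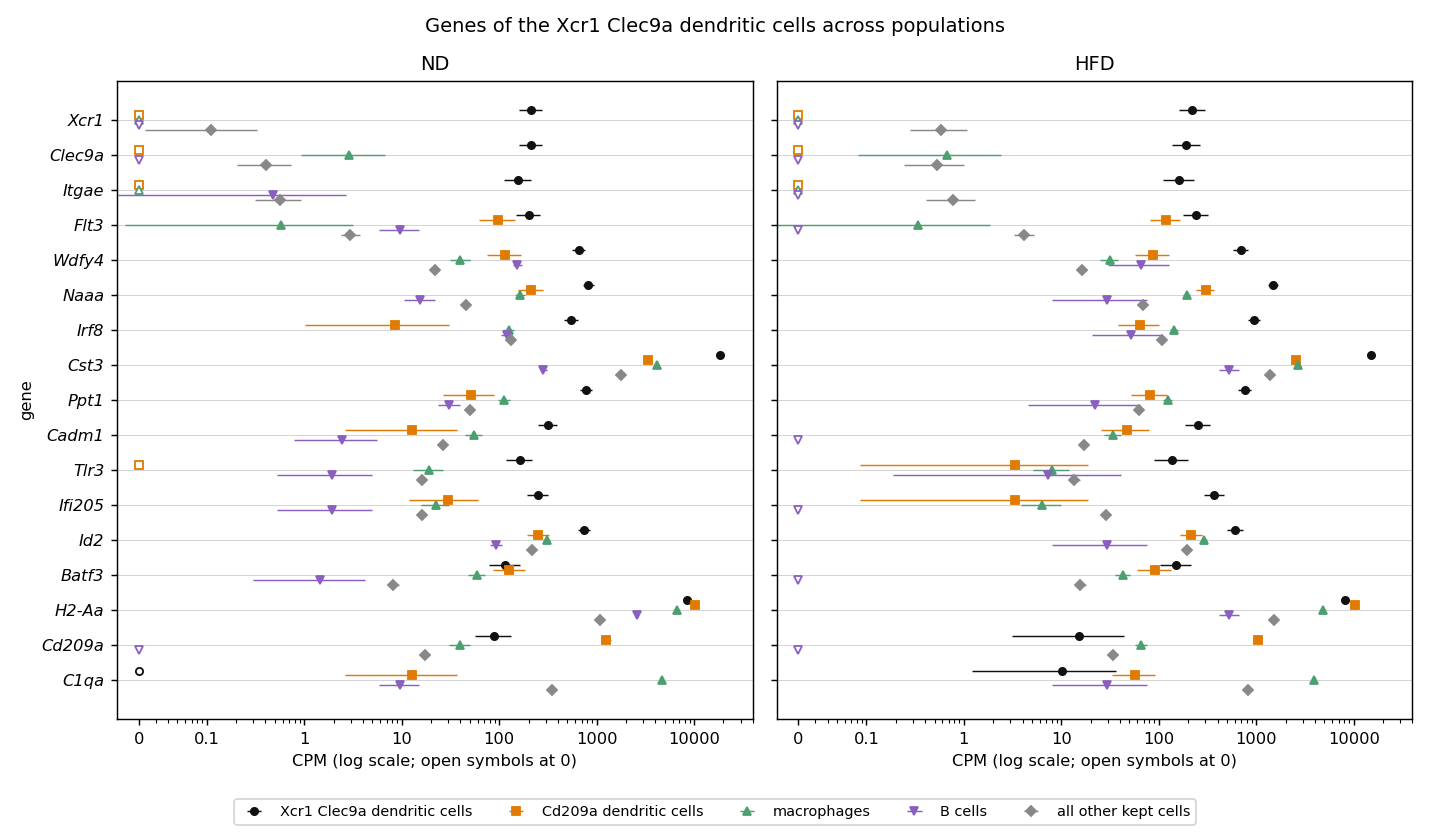
CPM of 17 genes (log axis, with 0 at the left end) in 5 populations of the ND (left) and HFD (right) library, with exact Poisson 95% intervals. Irf8, Cst3, Ppt1, Cadm1, Tlr3 and Ifi205 were higher in the Xcr1 Clec9a dendritic cells than in each other population of both libraries, while Batf3 and H2-Aa were close to the Cd209a dendritic cells.

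Genes of antigen presentation were among the most abundant in these cells. Cd74, the invariant chain of MHC class II, was at 17912 CPM (17409.8 to 18424) in ND cells and 16379.8 CPM (15822 to 16952) in HFD cells, beside 23321 and 21368 CPM in Cd209a dendritic cells. H2-Aa, H2-Ab1 and H2-Eb1, chains of the class II molecules, were at 8366 and 8159.7 CPM, 7316 and 7727 CPM and 8989 and 9352 CPM. The 13 class II genes in the counts summed to 44931 and 43812 CPM, which was 6165 and 9102 CPM in all other cells. H2-Ob, part of the H2-O inhibitor of peptide loading, was at 141 and 166 CPM, against 85.0 and 70.5 CPM in Cd209a dendritic cells. Ctss, the protease that cleaves the invariant chain, was at 215 and 453 CPM, below the 795 and 1034 CPM of Cd209a dendritic cells and the 1328 and 2789 CPM of macrophages. Lgmn, an endopeptidase of lysosomes, was at 22.3 and 25.2 CPM against 127 and 269 CPM.

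Genes of the class I route lay on both sides of their levels in Cd209a dendritic cells. Subunits of the immunoproteasome and its activator were higher, with Psmb9 at 416 and 413 CPM against 123 and 107 CPM, Psmb8 at 445 and 729 CPM against 242 and 215 CPM and Psme1 at 612 and 629 CPM against 221 and 208 CPM. Tap1, a subunit of the peptide transporter, was at 252 and 282 CPM against 140.2 and 121 CPM. B2m, the light chain of class I, and the heavy chain H2-D1 were not higher, at 1632 and 1378 CPM against 2146 and 1471 CPM and 1291 and 1056 CPM against 1827 and 1535 CPM. Cybb, a subunit of the NADPH oxidase of phagosomes, was at 33.4 and 15.1 CPM in members, 412 and 282 CPM in Cd209a dendritic cells and 601 and 409.5 CPM in macrophages. Unc93b1, which carries nucleic acid receptors to endosomes, was at 475 and 297 CPM, while Tlr7 and Tlr9 had 0 UMIs in members of both libraries.

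The costimulation list summed to 1406 and 986 CPM in members, beside 1241 and 981 CPM in Cd209a dendritic cells and 287 and 256 CPM in all other cells. Cd83, a surface protein of activated dendritic cells, led it at 927 and 684 CPM. Cd86 had 24 and 16 UMIs, Cd80 had 6 and 1 UMIs and Cd40 had 8 and 3 UMIs. Havcr2, which encodes the checkpoint receptor TIM-3, was at 111 and 75.5 CPM, against 12.7 and 6.72 CPM in Cd209a dendritic cells and 18.3 and 17.5 CPM in macrophages. Genes of mature, migrating dendritic cells summed to 1042 and 367 CPM, beside 2371 and 1944 CPM in Cd209a dendritic cells. Ccr7, the receptor that guides dendritic cells to lymph nodes, had 12 UMIs in 2 ND cells and 1 UMI in 1 HFD cell, and Fscn1 had 1 UMI in all. Il12b, a subunit of interleukin-12, had 9 UMIs in 4 ND cells and 0 in HFD cells, where 3 UMIs would be 15.1 CPM. Il12a had 0 UMIs in both.

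Cells with transcripts of proliferation were present in both libraries. Mki67 or Top2a was found in 9 of 31 ND cells (29.0%, 14.2% to 48.0%) and 6 of 30 HFD cells (20%, 7.71% to 38.6%). The same genes were found in 4.09% and 5.02% of all other kept cells, and in 8 of 36 and 8 of 52 Cd209a dendritic cells. At least 3 UMIs of both genes together were found in 5 ND and 4 HFD members. Mki67 was at 70.5 and 90.6 CPM in members, against 34.0 and 26.9 CPM in Cd209a dendritic cells and 12.3 and 14 CPM in all others. Median depth per cell was 7925 and 6540 UMIs in members, but 3713 and 5319 UMIs in all others, so that the shares are not comparable between them without the CPM. In members Mki67 was higher in HFD while the share of cells was higher in ND, and no order of the diets was read from either.

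Against the Cd209a dendritic cells, 36 in ND and 52 in HFD, 13 of 1682 genes (0.773%) were at least 4-fold higher and 37 (2.2%) at least 4-fold lower in both libraries. These ratios have 10 CPM added to each side, and the genes used to gate either population were left out. A Cd209a dendritic cell had a UMI of Cd209a and UMIs of at least 2 of Cd209a, Clec10a, Mgl2, Flt3 and Itgax, passed the limits on C1q and on Pecam1 and Cdh5, and was not a member. The ND Cd209a dendritic cells were not clean, with 18447 CPM of B cell genes, chiefly Ighm and Igkc, and the HFD ones held 13926 CPM of haemoglobin genes. The part of this RNA in the ratios was not tested. Over all 1682 genes the median log2 ratio was -0.04 in ND and 0.06 in HFD.

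Of 17 cDC1 genes outside the rule that were measured in this comparison, 5 were at least 4-fold higher in both libraries and none lower. Over all genes 0.773% were higher and 2.2% lower. The median log2 ratio of the 17 was 1.87 in ND and 1.96 in HFD. These 5 were Irf8, Cst3, Cadm1, Ppt1 and Ifi205. The list was chosen with earlier results of these data known, so it is no independent check of the name. Irf8 was 30.0 and 13.1 times as high, Ppt1 13 and 8.50 times, Ifi205, an interferon-inducible gene, 6.51 and 28.6 times and Cst3 5.52 and 5.79 times. Txndc16, a thioredoxin domain protein of the endoplasmic reticulum, led the ranking with 41.4 and 14.4 times. Its UMIs were uneven, since 7 ND cells and 3 HFD cells with at least 10 UMIs each held 238 of 251 and 58 of 94 UMIs. Tbc1d8, Anpep, which encodes the peptidase CD13, Slc8b1, a mitochondrial exchanger of sodium and calcium, and Ncoa7 were 7.94 and 11.2, 8.76 and 6.01, 5.04 and 5.00 and 4.92 and 6.01 times as high. Dcn was also among the 10 highest, at 6.09 and 12.3 times, but 119 of its 216 ND UMIs and 46 of its 47 HFD UMIs lay in 1 cell of each library. Without the 3 cells rich in fibroblast RNA, the smaller of its log2 ratios in the 2 libraries was -0.40.

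The 10 genes with the smallest ratios were S100a9, Ccl9, Fcrls, Clec4a3, Cybb, S100a8, Pltp, Fn1, Dok2 and Ccl6. Ccl9 and Ccl6, chemokines of myeloid cells, were 38.9 and 21.9 times and 7.67 and 10.7 times as high in Cd209a dendritic cells as in members. Pltp, a phospholipid transfer protein, was 8.93 and 15.5 times as high there and Clec4a3, a lectin receptor, 11.3 and 13.8 times. S100a8 and S100a9, genes of neutrophils and monocytes, had 4 UMIs in all members, against 484 and 218 CPM and 561 and 285 CPM in Cd209a dendritic cells. Of the Cd209a dendritic cell markers, Sirpa was at 26.0 and 15.1 CPM against 149 and 161 CPM, Itgam at 3.71 and 20.1 CPM against 212 and 161 CPM and S100a4 at 171 and 106 CPM against 1343 and 1407 CPM. The chemokine receptor Ccr2 was at 119 and 171 CPM against 399 and 399.6 CPM.

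**Figure D3:**
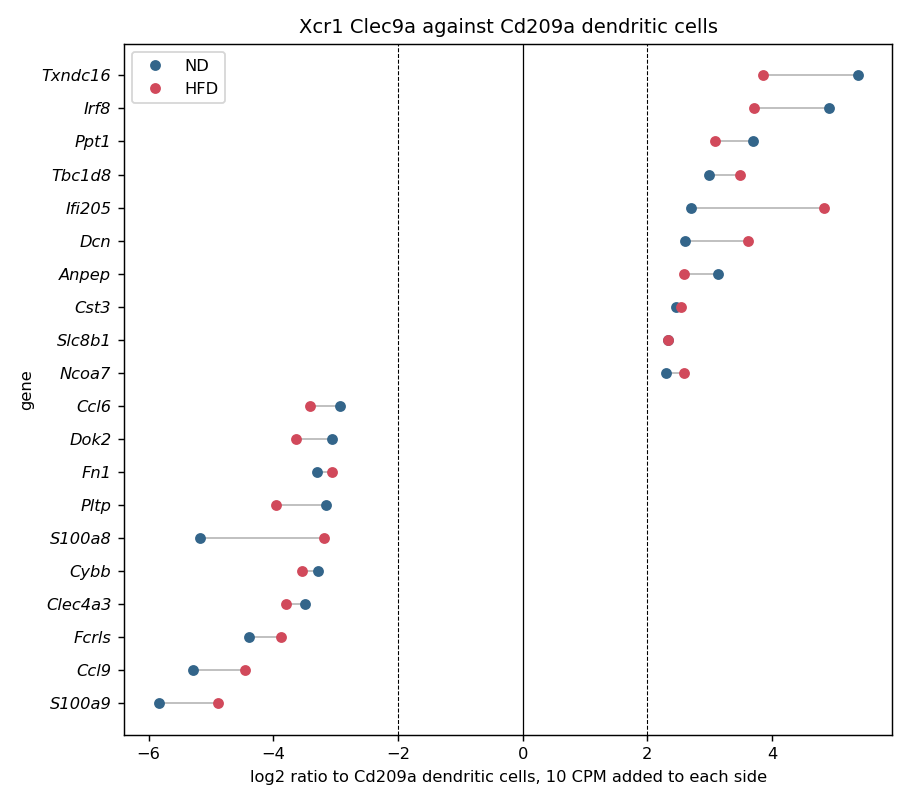
Log2 ratio of CPM in Xcr1 Clec9a to Cd209a dendritic cells (horizontal axis, 10 CPM added to each side) for the 10 highest and 10 lowest genes, in ND (blue) and HFD (red), joined by a grey line. Dashed lines mark 4-fold, and all 20 genes lay past it in the same direction in both libraries.

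Against all other kept cells together, the 10 genes that stood out most were Plbd1, Txndc16, Sept3, Ppt1, Cst3, Ifi205, Cytip, Cadm1, Gatm and Tbc1d8. Plbd1, a phospholipase-like protein, was at 819.9 and 931 CPM against 28.1 and 41.1 CPM, and Cytip, a regulator of leukocyte adhesion, at 987 and 956 CPM against 93.0 and 82.7 CPM. Both were also high in Cd209a dendritic cells, at 463 and 356 CPM and 650.2 and 504 CPM. Sept3, a septin, was at 129.8 and 257 CPM and at 0.893 and 2.18 CPM in the other cells. Gatm, an enzyme of creatine synthesis, was at 219 and 257 CPM against 19.4 and 21.6 CPM.

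Between the diets, 49 of 1837 genes with at least 30 UMIs (2.67%) were at least 2-fold higher in HFD members and 149 (8.11%) at least 2-fold lower, with a median log2 ratio of HFD over ND of -0.08. Without the 3 cells rich in fibroblast RNA, 42 were higher and 94 lower. Of the first 49 and 149 genes, 31 (63.3%) and 78 (52.3%) still had 30 UMIs and were past 2-fold without them. The genes measured fell from 1837 to 1642, and a gene under the minimum counts here as not past 2-fold. Diet and library cannot be told apart in these counts.

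Of 21 cDC1 genes outside the rule that were measured, 1 was at least 2-fold higher and 3 lower between the diets, with a median log2 ratio of 0.08, beside 2.67% and 8.11% over all genes. Xcr1, Clec9a, Flt3, Itgae and Wdfy4 had log2 ratios from -0.15 to 0.27, and the interval of each held 0. UMIs of these genes and of Naaa chose the cells in both libraries. Their ratios are thus a description only, and the intervals do not account for that choice. Naaa was higher in HFD, with a log2 ratio of 0.86 (0.60 to 1.12), and it was also higher in the other cells together, at 0.62. Irf8 had a ratio of 0.81 (0.49 to 1.13), or -0.26 in all other cells and 0.21 in macrophages. In Cd209a dendritic cells Irf8 was higher in HFD too, at 2.91 (0.86 to 6.05), from 2 and 19 UMIs. In members the lowest, median and highest Irf8 CPM per cell were 0, 284 and 1874 in ND and 0, 732 and 2609 in HFD. The cells of both libraries thus overlapped widely. Sept3, Btla and Ifi205 were higher by less than 2-fold, at 0.98 (0.33 to 1.65), 0.83 (0.05 to 1.62) and 0.58 (0.09 to 1.08). Cst3 was lower, at -0.30 (-0.37 to -0.24). The gene past 2-fold upward was Gcsam, with 12 and 18 UMIs and an interval that held 0, at 1.02 (-0.11 to 2.21). The 3 lower ones were Cd36, a scavenger receptor for lipids, Hepacam2 and Tbc1d4, at -1.44 (-2.21 to -0.72), -1.48 (-2.72 to -0.39) and -1.08 (-1.83 to -0.38). Over the alternatives to the rule, the cells, the minimum and the scaling, the 2-fold call of Hepacam2 held in 16 of 16, that of Gcsam in 10 of 16, that of Tbc1d4 in 11 of 16 and that of Cd36 in 15 of 16, where Cd36 was at 0.36 when Pecam1 and Cdh5 were not used. Gcsam was at -0.27 without cells with UMIs of other cell types, and Tbc1d4 at -0.96 without the 3 cells rich in fibroblast RNA. In this and all later counts of alternatives, the other minimums and the lower C1q limit kept the same members. They returned the reported diet ratio by construction, so the counts overstate how well a call held.

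Egr1, Jun and Nr4a1, immediate early genes that the digestion of tissue can also induce, were lower in HFD members. Egr1 was at 827 CPM (722 to 943) in ND cells and 131 CPM (85.4 to 192) in HFD cells, a log2 ratio of -2.66 (-3.31 to -2.07), and was found in 22 of 31 ND cells and 10 of 30 HFD cells. Jun was at 401 CPM (329 to 484) in ND cells and 95.6 CPM (57.5 to 149) in HFD cells, a ratio of -2.07 (-2.85 to -1.36), and was found in 20 of 31 ND cells and 10 of 30 HFD cells. Nr4a1 was at 846 and 392 CPM, a ratio of -1.11 (-1.5 to -0.73), in 30 of 31 ND cells and 25 of 30 HFD cells. These were 3 of 13 genes of the dissociation list, none of which was 2-fold higher, and the median of the list was -0.65. Over all genes 8.11% were at least 2-fold lower and 2.67% higher. Fos, by contrast, was at 1083 and 1368 CPM, with a ratio of 0.34 (0.09 to 0.58), and Dusp1 at 924 and 971 CPM. The same direction was measured elsewhere, as the ratio of Egr1 was -1.47 in Cd209a dendritic cells, -0.93 in macrophages and -0.34 in all other cells, and that of Jun -1.45, -0.86 and -0.45. Without the 3 cells rich in fibroblast RNA the ratios in members were -2.35 for Egr1, -1.90 for Jun and -0.95 for Nr4a1, which was then not past 2-fold. Without cells with UMIs of other cell types they were -1.27, -1.51 and -0.86. The median mitochondrial share, 10.4% in ND and 19.3% in HFD members, moved with the diet as well, and with a limit of 20%, which left 31 ND and 18 HFD cells, the ratios were -2.31, -1.98 and -1.48. Over all alternatives Jun was past 2-fold in 16 of 16, Egr1 in 15 of 16 and Nr4a1 in 12 of 16, and Egr1 was at -0.81 when Pecam1 and Cdh5 were not used. These counts include the alternatives that returned the reported ratio by construction.

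Several transcripts of activated dendritic cells had UMIs chiefly in ND members. Ccl22, a chemokine that attracts regulatory T cells, had 61 UMIs in 8 ND cells, with 21 in the highest, and 0 in HFD cells. With 3 UMIs set in place of 0 over the group, it was 15.0-fold lower in HFD. The upper end of the interval of its log2 ratio was -3.56. Cxcl2, a chemokine for neutrophils, had 104 UMIs in ND and 1 in HFD, but 92 of the 104 lay in 2 of 8 cells. The log2 ratio of Cxcl2 was -6.26 (-11.58 to -3.75), and in Cd209a dendritic cells the gene was at 709.7 and 678 CPM. Cxcl10, which attracts CXCR3-bearing T cells, had 30 and 4 UMIs and a ratio of -2.47 (-4.43 to -0.96), and 20 of its 30 ND UMIs lay in the 3 cells with Cd209a. Its ratio was -0.94 without the cells with Cd209a. Irf1, a factor of the interferon response, had a ratio of -1.77 (-3.08 to -0.64), with -1.92 to -0.36 over the alternatives. Of 5 genes of mature dendritic cells that were measured, Ccl22, Birc3 and Marcksl1 were at least 2-fold lower and none higher, with a median of -1.15, and of 7 chemokine genes Cxcl2 and Cxcl10 were lower and none higher, with a median of -0.17, beside the 8.11% lower over all genes. The call of Birc3 was lost without the 3 cells rich in fibroblast RNA, at -0.86, and its direction turned without cells with UMIs of other cell types, at 0.32, while Ccl22 and Cxcl2 were past 2-fold in 15 of 15 and 15 of 15 alternatives and Marcksl1 in 15 of 16. In Cd209a dendritic cells the ratio was -3.34 for Ccl22, -2.51 for Cxcl10, -1.51 for Irf1, -1.32 for Birc3 and -1.13 for Marcksl1. The intervals of these ratios lay below 0, so the direction was shared with that population. Cxcl2 was at -0.07 there, with an interval that held 0. Klrd1, a lectin receptor listed for Cd209a dendritic cells, had 28 and 1 UMIs, in 13 ND cells and 1 HFD cell, which is 1 UMI short of the minimum, and 11 of its ND UMIs lay in the cells with Cd209a.

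Of the 5 genes with the lowest ratios and at least 4 UMIs in each library, Bcl2a1b, Tgif1 and Serpinb9 were found in 15 or more ND cells. Bcl2a1b, a survival factor of the Bcl2 family with near-identical copies in the genome, so that its counts are uncertain, was at 230.0 and 20.1 CPM and found in 17 of 31 ND cells and 3 of 30 HFD cells, a log2 ratio of -3.51 (-5.44 to -2.09). Tgif1, a homeobox repressor, was at 167 and 20.1 CPM in 19 of 31 ND cells and 3 of 30 HFD cells, a ratio of -3.05 (-4.99 to -1.60). Serpinb9, an inhibitor of granzyme B, was at 159.5 and 20.1 CPM in 15 of 31 ND cells and 3 of 30 HFD cells, a ratio of -2.99 (-4.93 to -1.53). Actn1, an actin cross-linker, had 39 and 3 UMIs, in 16 ND and 3 HFD cells. With the cell of each library that had the most UMIs of the gene left out, the ratios were -4.29, -3.83, -3.72 and -3.49 in this order. Without cells with UMIs of other cell types Tgif1 was at -0.95, while Bcl2a1b and Serpinb9 were past 2-fold in all 16 of 16 and 16 of 16 alternatives.

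Other large ratios rested on single cells or on RNA of other sources. Igfbp6 had 134 of its 137 ND UMIs in 1 cell and Sfrp5 all 120, Col1a2 had 157 of 175 and Col1a1 98 of 108. In HFD, C3 had 25 of 29 UMIs in 1 cell, Acta2 40 of 41, Ube2c 22 of 29 and Fabp4 52 of 95. With the highest cell of each library left out, the ratio of Igfbp6 was 0.38 and that of Acta2 -0.62. Bgn, Id3 and Cavin1 had 53, 46 and 45 UMIs in ND and 2, 3 and 2 in HFD, and the highest ND cell held 21, 30 and 27 of them. All 5 measured fibroblast genes were at least 2-fold lower in HFD, beside 8.11% over all genes. Without the 3 cells rich in fibroblast RNA, however, Col3a1 was at -0.09 and Gsn at -0.20. Hbb-bs, with the highest ratio at 3.41 (2.27 to 4.79), was spread over 25 of 30 HFD cells with at most 6 UMIs in each, and it was at 2221 and 15137 CPM in the other cells of the 2 libraries. Scgb1a1, a secreted protein of club cells, had 31 and 0 UMIs, with 10128 and 0.412 CPM in the other cells. Of the 1837 genes, 19 had 3 or fewer UMIs in HFD and 0 in ND.

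**Figure D4:**
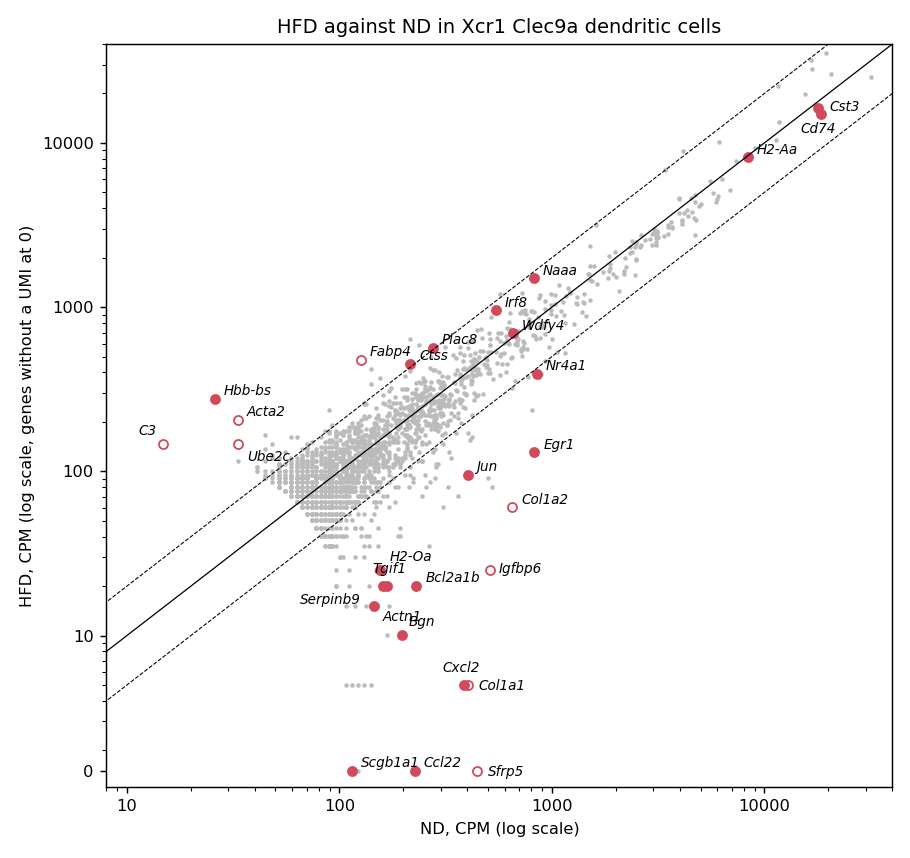
CPM of 1837 genes in ND (horizontal) and HFD (vertical) Xcr1 Clec9a dendritic cells on log axes, where genes without an HFD UMI sit at 0 and the dashed lines mark 2-fold. Open circles are named genes with at least 50% of the UMIs of the higher library in 1 cell, such as Igfbp6, Col1a2 and Acta2. Egr1, Jun, Bcl2a1b and Ccl22 lie far below the diagonal, and Cst3, Cd74 and H2-Aa lie close to it.

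Among 11 class II genes measured between the diets, 1 was at least 2-fold higher and 1 lower, beside 2.67% and 8.11% over all genes. The median log2 ratio of the list was -0.04, and H2-Aa had a ratio of -0.04 (-0.13 to 0.06). H2-Oa, the other part of H2-O, was at 156 CPM (112 to 211) in ND cells and 25.2 CPM (8.17 to 58.7) in HFD cells, a ratio of -2.63 (-4.33 to -1.30). It was found in 18 of 31 ND cells and 3 of 30 HFD cells, while its level in Cd209a dendritic cells was 123 and 134 CPM. In all other cells the ratio of H2-Oa was also negative, at -1.65, with an interval below 0. B cells held 271 of the 448 ND UMIs and 4 of the 90 HFD UMIs of H2-Oa in those other cells. In macrophages the ratio of H2-Oa was -1.77, from 6 and 3 UMIs, with an interval that held 0. Ctss was higher, with a ratio of 1.07 (0.58 to 1.58), and was found in 23 of 31 ND cells and 29 of 30 HFD cells. Over the alternatives H2-Oa was past 2-fold in 16 of 16 and Ctss in 10 of 16, with Ctss at 0.76 to 1.36. The ratio of Ctss was 1.07 in macrophages and 2.22 in all other cells. None of 16 class I genes was past 2-fold, beside the same 2.67% and 8.11% over all genes. The median of that list was 0.07, where Psmb8 was at 0.71 (0.35 to 1.07) and H2-K1 at -0.70 (-0.97 to -0.44).

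**Figure D5:**
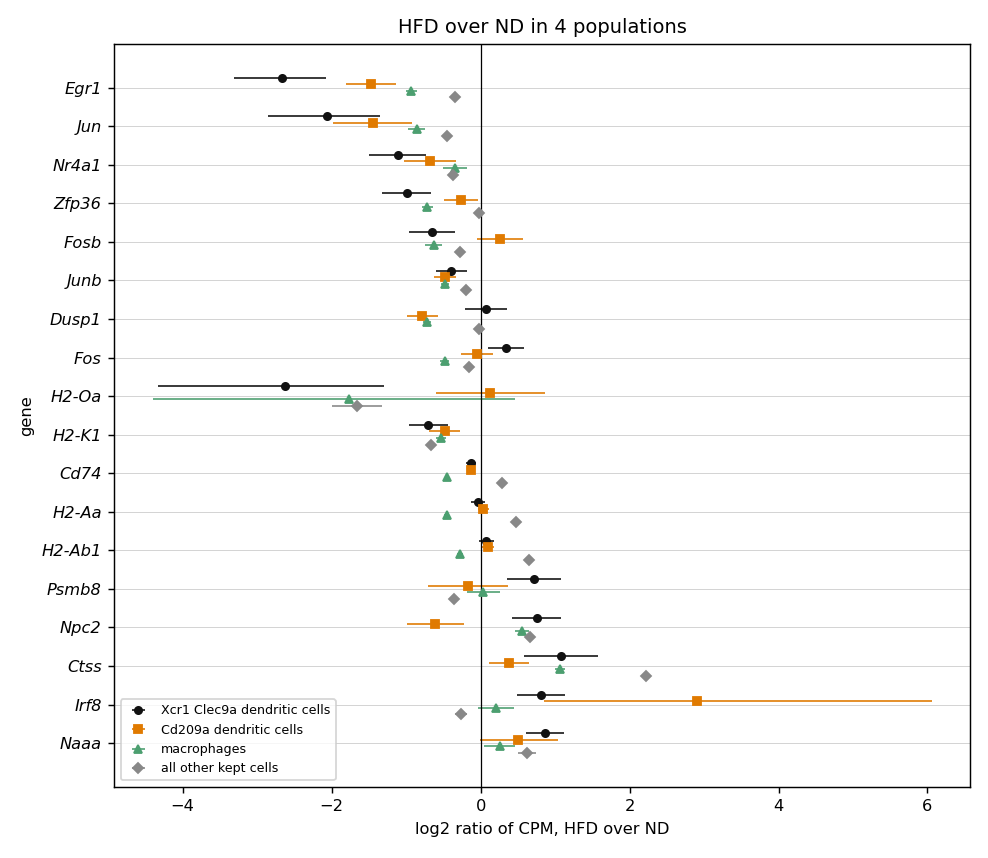
Log2 ratio of CPM in HFD over ND (horizontal axis) of 18 genes in 4 populations, with exact conditional binomial 95% intervals. Egr1, Jun and Nr4a1 lay below 0 in each population and farthest in the Xcr1 Clec9a dendritic cells, while H2-Aa and H2-Ab1 lay near 0 in both dendritic cell populations.

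Genes of lipid handling were sparse. Of 20 such genes, 4 reached the minimum, and Fabp4 was the 1 past 2-fold, higher in HFD, with a median of 0.38 over the 4. Over all genes 2.67% were higher and 8.11% lower. The ratio of Fabp4 was 0.67 without the 3 cells rich in fibroblast RNA and 1.07 without its highest cell of each library. Npc2, a carrier of cholesterol in lysosomes, was at 519 and 875 CPM, a ratio of 0.75 (0.42 to 1.08). Lpl, the lipoprotein lipase, was at 3.71 and 40.2 CPM, against 229 and 238 CPM in Cd209a dendritic cells and 511 and 1043 CPM in macrophages. Abca1 and Abcg1, exporters of cholesterol, had 7 and 2 UMIs and 5 and 11 UMIs. Apoe had 5 and 1 UMIs, and since a tag at the end of the transcript may lie outside the deleted part of the gene, these UMIs do not check the genotype.

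For the other lists, the shares over all genes were again 2.67% higher and 8.11% lower. In the cell cycle list, of 10 genes measured, Ube2c was higher and Stmn1 lower, with a median of -0.38, and Stmn1, a tubulin-binding protein, had a ratio of -1.37 (-2.12 to -0.67). Of 6 interferon genes, Irf1 alone was past 2-fold, with a median of -0.27. Of 6 genes of FLT3 and growth factor signalling, Socs3 alone was past it, at -1.01 (-2.15 to 0.03), with a median of 0.15, and it was past it in 6 of 16 alternatives, with -0.21 without the 3 cells rich in fibroblast RNA and 0.32 without cells with UMIs of other cell types. Stmn1 was at -2.27 to -0.39 over the alternatives. None of 3 costimulation genes and none of 4 genes of nucleic acid and dead cell sensing was past 2-fold, with medians of -0.44 and -0.62. Of the monocyte markers, Plac8 was at 275 and 563 CPM, a ratio of 1.04 (0.60 to 1.48), in 15 of 31 ND cells and 18 of 30 HFD cells. Lyz2 had a ratio of -1.0 (-1.44 to -0.58), and the calls of Plac8 and Lyz2 held in 10 of 16 and 9 of 16 alternatives.

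Ligands of the 2 receptors of these cells were looked for in the other cells. Xcl1 had 49 UMIs in 21 ND cells and 9 UMIs in 4 HFD cells, and none in the Xcr1 Clec9a dendritic cells. Of those cells, 20 and 4 also had a UMI of Nkg7 or of a Cd3 chain, genes of natural killer and T cells. Xcl1 was at 21.9 and 12.3 CPM in all 464 and 99 cells with such a UMI, and at 0.0401 and 0 CPM in the rest. Flt3l, the ligand of FLT3, had 643 UMIs in 552 ND cells and 241 UMIs in 224 HFD cells, of which 222 and 120 cells had both Pecam1 and Cdh5. The share of cells with both genes among all kept cells was not set beside these counts. No main source of Flt3l is therefore read from them.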

How the data were processed

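Aortic arch cells were measured by droplet single-cell RNA sequencing in 1 library per diet. What the authors deposited per library is a table of unnormalized UMI counts, with 31053 genes and all barcodes. The submitters' processing notes name Cell Ranger, bcl2fastq, UMI-tools, Seurat 3.2.0, R 4.0.0 and mm10, without a role for each, and for the gene annotation behind the counts, the sources used here give no name. Counts of both libraries joined were not used, since the single libraries hold them. Positions are from GENCODE M21 on GRCm38.

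Groups were taken from the labels. The members, the gene lists and the named genes were chosen with earlier results of these data known. UMIs were summed over the cells of a population and library and divided by all their UMIs as CPM, so libraries of unlike depth were put on 1 scale. Other populations were gated by UMIs too: Cd209a dendritic cells, macrophages with C1q and Csf1r, and B cells with Cd79a and Cd79b. Ratios between diets used genes with at least 30 UMIs over both libraries, and a gene was counted past 2-fold. Ratios between dendritic cells had 10 CPM added to each side and were counted past 4-fold in both libraries. Named were the 5 highest and 5 lowest diet ratios with at least 4 UMIs in each library, genes with 3 or fewer UMIs in 1 library, and the 10 highest and 10 lowest ratios to Cd209a dendritic cells and 10 highest to all other cells, besides the lists. No gene was tested, since no group had a replicate. No sequence is printed, since the values bear on no site in the genome.

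Doublets were kept, as no member was left out on a score. Scrublet's own threshold marked 94 ND and 9 HFD cells, 1 and 0 of them members, and 2 of 31 and 2 of 30 members lay in the highest 6% of scores. Leaving those out was an alternative, as were other limits on mitochondrial UMIs, UMIs of the rule genes, other scalings and other minimums. Depth sets the precision: an ND member had 2674 to 18746 UMIs and an HFD member 1680 to 11867. Calculations used Python 3.11.15, numpy 2.4.6, scipy 1.17.1, pandas 2.3.3 and scanpy 1.11.5, and figures matplotlib 3.10.9. The diet ratio, its interval and the 2-fold call were tested on simulated Poisson counts. Those counts had no differences between cells, and the other steps were not simulated.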

Additional observations from a re-analysis of the deposited data

Results flagged for a closer look

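Among HFD barcodes left out for more than 30% mitochondrial UMIs, 7 of 7215 met the rest of the rule, or 0.0970% (0.0390% to 0.20%). Their median depth was 2978 UMIs and their median mitochondrial share 45.7%, and they had Cst3 at 8254 CPM, Irf8 at 596 CPM and H2-Aa at 5273 CPM. In ND, 0 of 2299 such barcodes met it, with an interval up to 0.160%.

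Among genes with at least 30 UMIs in each of the 2 dendritic cell populations and at least 4 in each library of both, Fabp4 and Tbc1d4 were past 2-fold between the diets in opposite directions. Fabp4, a carrier of fatty acids, had a log2 ratio of 1.92 in Xcr1 Clec9a dendritic cells, with 34 and 95 UMIs, and -1.03 in Cd209a dendritic cells, with 199 and 123 UMIs. In the former 52 of the 95 HFD UMIs lay in 1 cell, and the ratio was 1.07 without the highest cell of each library and 0.67 without the 3 cells rich in fibroblast RNA. Tbc1d4, a regulator of vesicle traffic, had a ratio of -1.08, with 66 and 23 UMIs, and of 1.53 in Cd209a dendritic cells, with 14 and 51 UMIs. Neither difference was tested, since each rests on 1 library per diet. Other named genes had opposite ratios with intervals off 0 but a smaller ratio or fewer UMIs, namely Npc2, Cxcl16, Traf1, Ifi205, Igfbp6, C3 and Ube2c, with 0.75, -0.72, -0.87, 0.58, -4.34, 3.30 and 2.13 in Xcr1 Clec9a dendritic cells and -0.61, 1.74, 0.59, -3.15, 2.75, -2.92 and -2.34 in Cd209a dendritic cells.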

How the results depend on the processing

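No paired analysis was possible because each diet had 1 library. Intervals cover counting error, and 3 or fewer UMIs in both libraries gave no ratio. The members, 31 in ND and 30 in HFD, were 13 and 2 with at most 10% mitochondrial UMIs, too few for gene values, with shares of 1.54% and 1.79%. At most 20% gave shares of 0.878% and 1.68%, with 18 HFD cells. A minimum of 2 UMIs of Xcr1 and Clec9a gave 0.388% and 0.657%, with 18 HFD cells. Leaving out members with 2 or more UMIs of other cell types gave 22 ND and 7 HFD cells, or 0.406% and 0.256%. That turned the order of the diets, but it still divides by all kept cells, from which no cell was left out. Thinning gave 14 and 9 cells, or 0.262% and 0.329%.

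The number of genes measured changed with the setting as well, so each count is given out of that number. The 49 of 1837 higher genes between diets were 28 of 780 without cells with UMIs of other types. They were 129 of 2757 with a minimum of 20 UMIs and 16 of 869 with 60. The 149 of 1837 lower genes were 90 of 1109 with 2 UMIs of Xcr1 and Clec9a and 98 of 1624 without high doublet scores. They were 284 of 2757 and 54 of 869 with minimums of 20 and 60 UMIs. Without the cells rich in fibroblast RNA they were 94 of 1642. Against Cd209a dendritic cells, the 13 of 1682 higher genes were 3 of 340 without cells with UMIs of other types. They were 21 of 2454 with 20 UMIs and 6 of 803 with 60. The 37 of 1682 lower genes were 109 of 2806 without the C1q limit and 56 of 2675 without the limit on Pecam1 and Cdh5. They were 10 of 340 without cells with UMIs of other types and 18 of 803 with 60 UMIs.

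Of 2362 gene ratios under alternatives, 148 had the other sign than the reported value, 137 of them of ratios short of the 2-fold or 4-fold limit and 11 of ratios past it. The 2362 include diet ratios under other minimums and the lower C1q limit, which could not differ from the reported value. Without the highest cell, Acta2 was at -0.62 and Igfbp6 at 0.38. Without cells with UMIs of other types, Gcsam was at -0.27, Birc3 at 0.32 and Socs3 at 0.32, and S100a8 against Cd209a dendritic cells at 1.84. Without the limit on Pecam1 and Cdh5, Cd36 was at 0.36. Dcn against Cd209a dendritic cells was at -1.01 with 2 UMIs of Xcr1 and Clec9a, -0.39 without high doublet scores, -0.66 without UMIs of other types and -0.40 without the cells rich in fibroblast RNA. The causes were not tested. The removal of cells with fibroblast RNA, of cells with Cd209a and of the highest cell of each gene was chosen after seeing the data.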
